A study of Homo sapiens with 4 samples.

Results

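The 78 protein-coding genes with symbols of the form MRPL or MRPS followed by a number, 49 named for the large and 29 for the small subunit of the mitochondrial ribosome, were examined for the RNA that K562 cells made in the last minutes before harvest. They were picked by symbol in the GENCODE 29 annotation out of 60279 gene identifiers in the human count table. All 78 passed the filter on low counts, as did 17322 genes in all, 11547 of them protein-coding.

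The mitochondrial ribosome translates the few proteins encoded in mitochondrial DNA, all of them parts of the respiratory chain and the ATP synthase. Its ribosomal RNAs come from mitochondrial DNA, whereas every one of its proteins is encoded in the nucleus, translated in the cytosol and imported. Many of these proteins have counterparts in bacterial ribosomes, and the others were added during the evolution of mitochondria.

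K562 is an established erythroid-like chronic myeloid leukaemia line, and the cells were not treated apart from the label. Both groups received 1 mM 4-thiouridine, a uridine analogue that is built into new RNA, for 15 min in 1 group of 2 libraries and for 5 min in the other group of 2 libraries. New RNA was biotinylated at its thiol groups, enriched on streptavidin and sequenced (transient transcriptome sequencing, TT-seq), after RNA of Drosophila S2 cells had been added as a spike-in of fixed mass. The libraries held 5051370 and 4726327 human reads after 15 min and 4339981 and 4695405 after 5 min, beside 318710 and 308978 fly reads after 15 min and 897018 and 803914 after 5 min. The labels do not say that the libraries came from separate cultures, so p-values measure the spread between these libraries, and a level per library cannot tell fewer producing cells from less RNA per cell. All 10 K562 markers passed the filter, with GATA1 at a mean TMM-scaled CPM (counts per 1000000 human reads) of 130 and TFRC of 1289 over the libraries. Among markers of other cells, CD3E, CD14 and COL1A1 were below the filter at 0.267, 0.422 and 0.391 CPM, while EPCAM had 46.2 CPM. PTPRC, listed with them but a general white blood cell gene and so not specific to other cells, had 94.0 CPM.

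Labelled RNA of the mitochondrial ribosomal protein genes rose with label time, with a median fold below that of all tested genes. Per 1000 fly reads the 78 genes together had 74.9 and 73.4 reads in the 15 min libraries, against 25.02 and 30.25 reads in the 5 min libraries, a ratio of 2.68 ± 0.361 (SD propagated from 2 libraries per label time). The label times did not overlap, and the 5 min libraries lay further apart than the 15 min libraries. Any error of the spike-in moves all genes of a library together. On this scale 77 of the 78 genes rose (edgeR quasi-likelihood test, Benjamini-Hochberg adjusted p under 0.05 over all tested genes), where 98.5% of tested coding genes and 98.4% of all tested genes rose. The median fold was 2.67 for the large and 2.79 for the small subunit genes, against 2.96 for all tested coding genes and 3.20 for all tested genes.

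RNA made at a steady rate without loss would grow 3-fold between 5 and 15 min, and 53 of the 78 genes stayed under 3-fold. That is 67.9%, where 52.2% of tested coding genes and 41.9% of all tested genes stayed under it. Tested against 3-fold in the same kind of fit, 18 genes lay below it (11 large, 7 small) and 4 above it (MRPL27, MRPL38, MRPL46 and MRPS24). Of tested coding genes 12.9% were below and 7.69% above, and of all tested genes 9.02% and 11.2%. The count below depended on single libraries: it was 0 without 15 min replicate 1, 2 without 15 min replicate 2 and 38 without 5 min replicate 1. The count above was 0 without either of the 15 min libraries, 7 without 5 min replicate 1 and 13 without 5 min replicate 2.

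**Figure D1:**
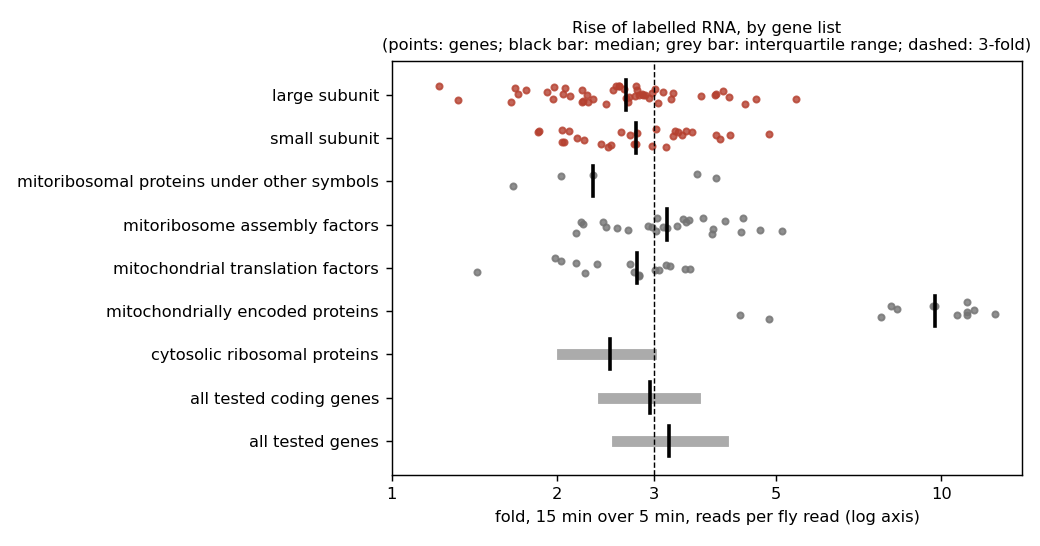
Fold of labelled RNA per fly read, 15 min over 5 min, on a log axis, for each gene of 6 lists (points), with medians as black bars, and as interquartile ranges (grey bars) for 3 larger sets. The dashed line marks 3-fold. The large and small subunit medians of 2.67 and 2.79 lie left of it, and the mitochondrially encoded proteins stand apart at a median of 9.72.

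The share of each gene in the labelled human RNA does not depend on the spike-in. After TMM scaling, 38 of the 78 genes were lower in share after 15 min than after 5 min, 9 were higher and 31 did not pass. That is 48.7% lower, where 30.5% of tested coding genes and 21.3% of all tested genes were lower, and 11.5% higher, where 13.7% and 16.8% were higher. DESeq2 called 22 lower and 3 higher. Log2 changes of the 31 genes that did not pass ran between -0.24 for MRPL15 and 0.56 for MRPL53. The large subunit had 24 of 49 genes lower and 6 higher, and the small subunit 14 of 29 lower and 3 higher. In 46 genes both 15 min libraries lay below both 5 min libraries, and in 14 above, against 44.2% and 27.3% of tested coding genes and 33% and 34.6% of all tested genes. The median log2 change in share was -0.21 for all 78, -0.23 for the large and -0.17 for the small subunit, against -0.08 for all tested coding genes and 0.03 for all tested genes.

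**Figure D2:**
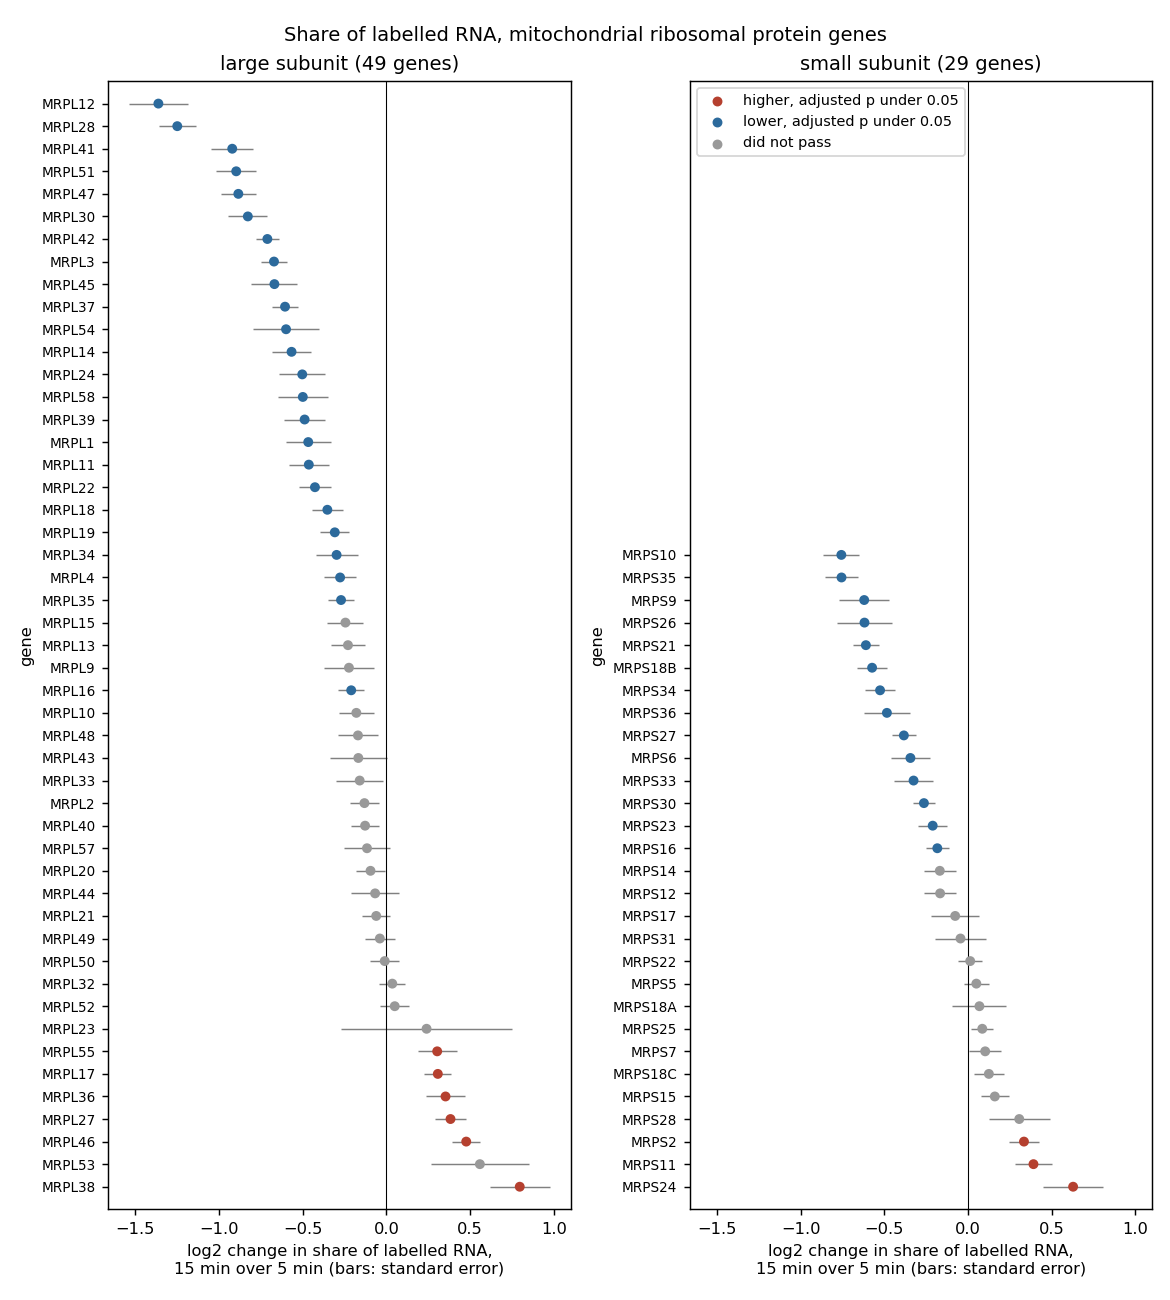
Log2 change in share of labelled RNA, 15 min over 5 min, for each of the 78 genes (points) with its standard error (bars), large subunit left and small subunit right, ordered from the largest loss at the top. Blue points were lower, red points higher and grey points did not pass at an adjusted p under 0.05. Values run between -1.36 for MRPL12 and 0.80 for MRPL38.

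Summed over the subunit, large subunit genes took 0.262% and 0.268% of human reads after 15 min, against 0.296% and 0.298% after 5 min. Small subunit genes took 0.210% and 0.212% after 15 min, against 0.221% and 0.220% after 5 min. In both subunits the label times did not overlap. The total includes mitochondrially encoded genes, which took 6.85% and 5.88% of it after 15 min, against 2.03% and 2.55% after 5 min. How far that rise accounts for the lower percents of either subunit was not tested. There were 1.24 and 1.27 large subunit reads per small subunit read in the 15 min libraries and 1.34 and 1.35 in the 5 min libraries. With 2 libraries per label time an exact permutation test cannot pass 0.05, so no p is given for these sums.

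**Figure D3:**
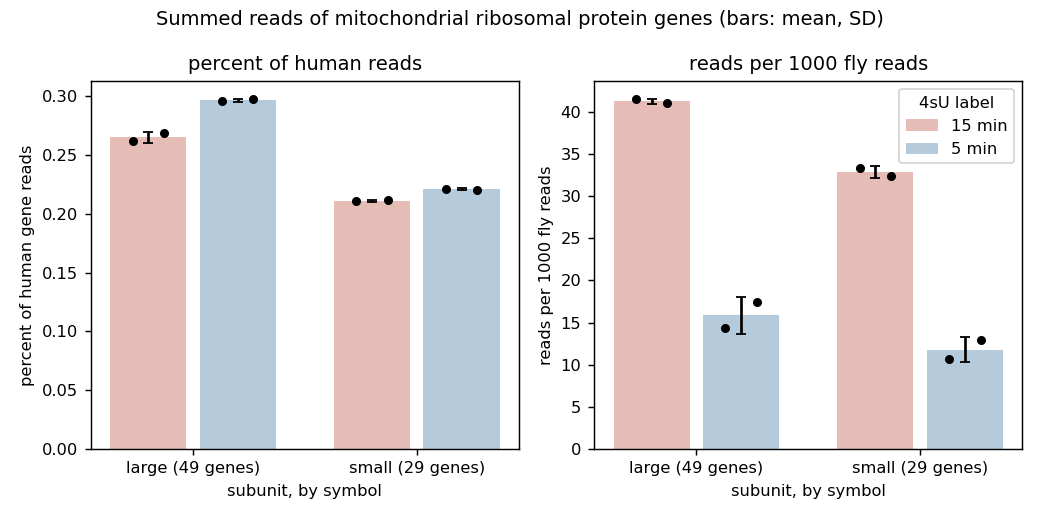
Summed reads of the 49 large and the 29 small subunit genes as percent of human gene reads (left) and per 1000 fly reads (right), with 15 min in red and 5 min in blue. Bars show the mean of 2 libraries with its SD, and points the libraries. The percent was lower after 15 min in both subunits, and the reads per 1000 fly reads were higher.

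The largest loss of share was that of MRPL12 (chr17:81703357-81707526, plus strand, build hg38), a stalk protein of the large subunit that also binds the mitochondrial RNA polymerase. MRPL12 had 10.2 and 11.1 CPM after 15 min, against 27.2 and 27.5 CPM after 5 min, a log2 change of -1.36 ± 0.17 (standard error, adjusted p = 1.5e-13, edgeR). Per 1000 fly reads it had 0.166 and 0.175 reads after 15 min, against 0.127 and 0.153 after 5 min. It was the gene that did not pass the test of a rise, at 1.22-fold with a 95% interval of 0.899 to 1.66 (adjusted p = 0.204, edgeR). The exons of MRPL12 meet those of AC139530.2 on the same strand, and the labels do not say how reads were assigned between such genes.

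MRPL28 (chr16:366969-371289, minus strand), whose protein has a bacterial counterpart, came next. It had 30.5 and 31.2 CPM after 15 min, against 76.6 and 70.1 CPM after 5 min, a log2 change of -1.25 ± 0.11 (adjusted p = 3.72e-28, edgeR). Its rise per fly read was 1.32-fold with a 95% interval of 1.03 to 1.69, and passed at an adjusted p of 0.0271 (edgeR) but not with DESeq2, with replicate number as a block or without either 15 min library. The exons of MRPL28 meet TMEM8A on the same strand.

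MRPL41 (chr9:137551199-137552555, plus strand) is a mitochondria-specific protein also described as a partner of BCL-2, and its exons meet no other gene. It had 24.3 and 29.4 CPM after 15 min, against 45.1 and 56.0 CPM after 5 min, a log2 change of -0.92 ± 0.12 (adjusted p = 3.3e-12, edgeR). MRPL51, also specific to mitochondria, had 32.8 and 26.1 CPM after 15 min, against 51.3 and 58.4 CPM after 5 min. MRPL47, whose bacterial counterpart lies at the exit of the peptide tunnel, had 35.7 and 45.2 CPM after 15 min, against 73.5 and 75.2 CPM after 5 min. In each of the 3 genes both 15 min libraries lay below both 5 min libraries. The exons of MRPL51 meet NCAPD2 and those of MRPL47 meet ACTL6A, both on the opposite strand.

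By CPM, not scaled for length, MRPL42 and MRPL3 were highest in the large subunit. MRPL42 had 146 and 151 CPM after 15 min, against 240 and 245 CPM after 5 min. It has 16393 exonic bases and stood at 11.9 CPM per kilobase of exon, against a median of 21.0 CPM over the 78 genes. The exons of MRPL42 meet RN7SL737P on the same strand. MRPL3, with a bacterial counterpart that extends towards the catalytic centre, had 83.3 and 91.2 CPM after 15 min, against 139 and 138 CPM after 5 min. Their log2 changes were -0.71 ± 0.07 and -0.67 ± 0.08 (adjusted p = 1.33e-24 and 1.47e-16, edgeR). MRPL37, a mitochondria-specific protein with exons that meet SSBP3 and CYB5RL on the opposite strand, changed by -0.61 ± 0.08. MRPL30 changed by -0.83 ± 0.12, at 29.9 and 33.7 CPM after 15 min, against 48.9 and 63.4 CPM after 5 min. The exons of MRPL30 meet AC079447.1 and AC092587.1 on the same strand.

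In the small subunit the losses were led by MRPS10, which has a bacterial counterpart, and by MRPS35, which has none. MRPS10 (chr6:42206801-42217865, minus strand) had 39.1 and 38.2 CPM after 15 min, against 59.0 and 71.4 CPM after 5 min. MRPS35 (chr12:27710773-27756295, plus strand) had 44.3 and 47.0 CPM after 15 min, against 76.6 and 77.5 CPM after 5 min. Both changed by -0.76 on the log2 scale, and the exons of neither meet another gene. MRPS21 and MRPS34 changed by -0.61 ± 0.08 and -0.53 ± 0.09.

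Of the 38 genes lower in share, 22 were called with DESeq2, with total-count scaling, without the filter, with replicate number as a block and without each library in turn. They were MRPL3, MRPL11, MRPL12, MRPL14, MRPL22, MRPL28, MRPL30, MRPL37, MRPL39, MRPL41, MRPL42, MRPL45, MRPL47 and MRPL51 in the large subunit. In the small subunit they were MRPS9, MRPS10, MRPS18B, MRPS21, MRPS27, MRPS30, MRPS34 and MRPS35.

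MRPL38 (chr17:75898643-75905413, minus strand), a mitochondria-specific protein of the central protuberance, gained most. It had 20.4 and 22.6 CPM after 15 min, against 10.98 and 13.66 CPM after 5 min, a log2 change of 0.80 ± 0.18 (adjusted p = 6.1e-05, edgeR). Its rise per fly read was 5.44-fold with a 95% interval of 4.02 to 7.36. The exons of MRPL38 meet AC087289.3 on the same strand and AC087289.2 on the opposite strand.

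MRPL46, another protein of the central protuberance, had 107 and 106 CPM after 15 min, against 84.1 and 69.2 CPM after 5 min, a log2 change of 0.48 ± 0.08 (adjusted p = 1.3e-07, edgeR). MRPL27, whose bacterial counterpart reaches towards the catalytic centre, had 79.6 and 83.6 CPM after 15 min, against 66.1 and 59.1 CPM after 5 min, a log2 change of 0.38 ± 0.09 (adjusted p = 0.000181, edgeR). MRPL38, MRPL46 and MRPL27 were the 3 gains called under every alternative named above. The other 6 gains were those of MRPS24, MRPS11, MRPL36, MRPS2, MRPL17 and MRPL55, with log2 changes between 0.63 and 0.30, and DESeq2 called none of them. Without 5 min replicate 2, 5 of the 9 gains were called. MRPS24 shares exons with URGCP-MRPS24, a read-through gene of the same strand, so its 18.5 and 21.97 CPM after 15 min, against 13.8 and 12.3 CPM after 5 min, are uncertain.

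**Figure D4:**
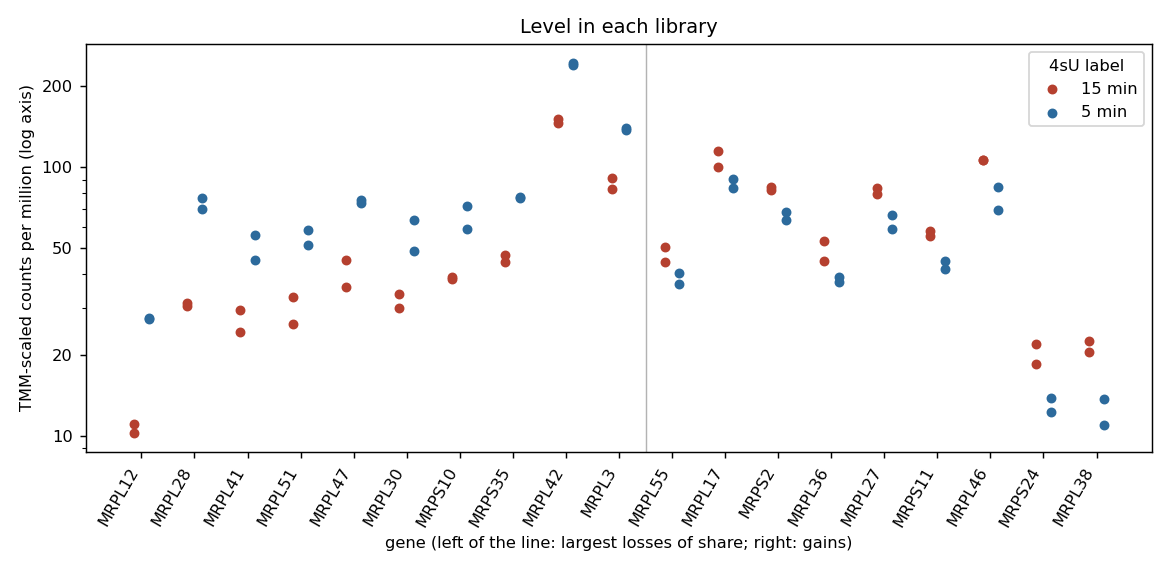
TMM-scaled CPM on a log axis in each of the 2 libraries at 15 min (red, left of each pair) and 5 min (blue) for the 10 largest losses and the 9 gains of share. The genes were picked for label times that do not overlap, so the separation is part of the choice. MRPL42 has the highest values, and the lowest are those of MRPL12 after 15 min and MRPL38 after 5 min.

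Short motifs were counted in the promoters of these genes, as a description with no test. RefSeq windows of build GRCh38.p14, with 250 bases before and 50 after the annotated start, were available for 69 of the 78 genes and for 9195 tested coding genes. Exact letters were searched on both strands for CCGGAAG (bound by ETS factors), AAGATGGC (YY1), GGGCGG (SP1), CCAAT (NF-Y), CGCATGCG (NRF1), TATAAA (TBP) and TGACGTCA (CREB). CCGGAAG was in 29 windows, or 42.0%, against 20.6% of tested coding genes. AAGATGGC was in 20 windows, or 28.99%, against 5.82%. In 15 of the 20 it began in the 50 bases after the start, which was so in 21.7% of the 69 windows and in 3.83% of tested coding genes. Both motifs were in 8 windows, or 11.6%, against 1.45%, and in none of the 69 did they overlap.

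The other motifs were near or under the share of all coding genes. GGGCGG was in 60.9% against 70.6%, CCAAT in 28.99% against 37.1%, TATAAA in 2.90% against 5.43%, CGCATGCG in 4.35% against 4.08% and TGACGTCA in 0 of 69 windows against 3.37%. These are matches of letters, not binding sites. The letters AAGATGGC include ATG, and how many of the matches hold a start codon was not tested. MRPL10, MRPL13, MRPL15, MRPL2, MRPL21, MRPL23, MRPL35, MRPS28 and MRPS36 had no window.

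AAGATGGC was found in genes of both directions, in 9 of the 36 losses and 4 of the 9 gains that had a window. The 30 bases around it are shown for the named genes in which it began after the start and the share changed, 5′ to 3′ on the strand of the gene, with the motif in capitals. The first 3 genes gained share and the other 5 lost it. MRPL22, MRPL45 and MRPS27 are not shown. In them the motif also began after the start, at bases 36, 14 and 17, and all were lower in share.
MRPL38: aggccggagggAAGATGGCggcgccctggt
MRPL46: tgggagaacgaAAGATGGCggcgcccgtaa
MRPS24: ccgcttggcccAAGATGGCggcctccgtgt
MRPL42: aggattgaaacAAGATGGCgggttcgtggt
MRPL51: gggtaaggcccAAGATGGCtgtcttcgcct
MRPS10: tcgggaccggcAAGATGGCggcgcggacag
MRPS18B: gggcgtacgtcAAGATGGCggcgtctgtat
MRPS30: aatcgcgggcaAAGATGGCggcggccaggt
The motif began between base 9 and base 24 after the start in 7 of the 8 genes shown, and at base 7 in MRPL38. The stretches lie at chr17:75904860-75904889 (minus strand), chr15:88467362-88467391 (minus strand), chr7:43869480-43869509 (minus strand), chr12:93467511-93467540 (plus strand), chr12:6493223-6493252 (minus strand), chr6:42217834-42217863 (minus strand), chr6:30617852-30617881 (plus strand) and chr5:44808949-44808978 (plus strand). With the motif the median log2 change in share was -0.13, and without it -0.22.

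The 150 bases before the RefSeq start are shown for the 3 largest losses of share and for MRPL46, which is transcribed divergently with MRPS11. Capitals mark letters of the motifs searched, on either strand.
MRPL12: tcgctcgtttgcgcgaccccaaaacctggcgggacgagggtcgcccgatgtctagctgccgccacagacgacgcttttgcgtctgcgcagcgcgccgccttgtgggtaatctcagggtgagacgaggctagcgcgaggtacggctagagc
MRPL28: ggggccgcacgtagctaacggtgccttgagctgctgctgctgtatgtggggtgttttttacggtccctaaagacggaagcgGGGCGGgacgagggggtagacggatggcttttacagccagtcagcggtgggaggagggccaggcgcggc
MRPL41: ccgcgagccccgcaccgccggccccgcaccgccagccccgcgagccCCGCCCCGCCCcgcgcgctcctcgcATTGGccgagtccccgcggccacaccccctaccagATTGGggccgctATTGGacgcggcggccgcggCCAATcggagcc
MRPL46: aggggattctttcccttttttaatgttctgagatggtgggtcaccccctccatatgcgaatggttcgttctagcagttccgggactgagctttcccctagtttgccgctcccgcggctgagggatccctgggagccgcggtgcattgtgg
They span chr17:81703217-81703366 (plus strand), chr16:370539-370688 (minus strand), chr9:137551729-137551878 (plus strand) and chr15:88467389-88467538 (minus strand). The stretch of MRPL12 holds none of the motif letters, that of MRPL28 holds GGGCGG, and that of MRPL41 holds GGGCGG and CCAAT on 1 or the other strand. The GENCODE start of MRPS11 on the opposite strand lies inside the MRPL46 stretch. RefSeq and GENCODE starts differ: the stretches of MRPL28 and MRPL41 lie wholly inside the GENCODE spans of these genes. Those of MRPL12 and MRPL46 reach into the spans of theirs.

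Some of these genes start close to a coding gene transcribed the other way. By GENCODE starts, 18 of the 78 genes had such a start within 1000 bases, or 23.1%, against 11.6% of tested coding genes. There were 15 of 49 in the large subunit and 3 of 29 in the small subunit. MRPL46 and MRPS11 (chr15:88459476-88467419, minus strand, and chr15:88467453-88480773, plus strand) start 34 bases apart, and they gained 0.48 and 0.39 in log2 share and rose 4.39-fold and 4.12-fold per fly read. MRPS11 had 55.3 and 58.1 CPM after 15 min, against 44.7 and 41.9 CPM after 5 min.

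Of 15 tested partners outside the set 3 were lower in share, 4 higher and 8 did not pass, where 30.5% of tested coding genes were lower and 13.7% higher. Whether these few partners differ from coding genes was not tested. Gene and partner both passed in 3 pairs, 2 with the same direction and 1 with opposite directions. MRPL47 changed by -0.88 and its neighbour NDUFB5, a subunit of respiratory complex I, by -1.001. MRPL18 changed by -0.35 and the chaperonin gene TCP1 by -0.51. MRPS34 changed by -0.53, against 0.41 for EME2.

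Overlap with other genes bears on the comparison of the subunits, since the labels name no strand setting for the counting. The exons of 44 of the 78 genes meet another annotated gene, 26 in the large and 18 in the small subunit. In the small subunit, genes that meet another gene had a median log2 change in share of 0.03, with 5 of 18 lower and 3 higher, and genes that meet none had -0.48, with 9 of 11 lower and 0 higher. In the large subunit the medians were -0.23 and -0.24, with 12 of 26 and 12 of 23 lower. Over all genes of each subunit the large minus small difference of medians was -0.06, but among genes that meet no other gene it was 0.24, the opposite direction. Among tested coding genes the medians were -0.05 for 6654 genes that meet another, with 27.5% lower and 15.8% higher, and -0.14 for 4893 that meet none, with 34.5% lower and 10.97% higher. The 5 of 18 small subunit genes are 27.8%, near that background.

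**Figure D5:**
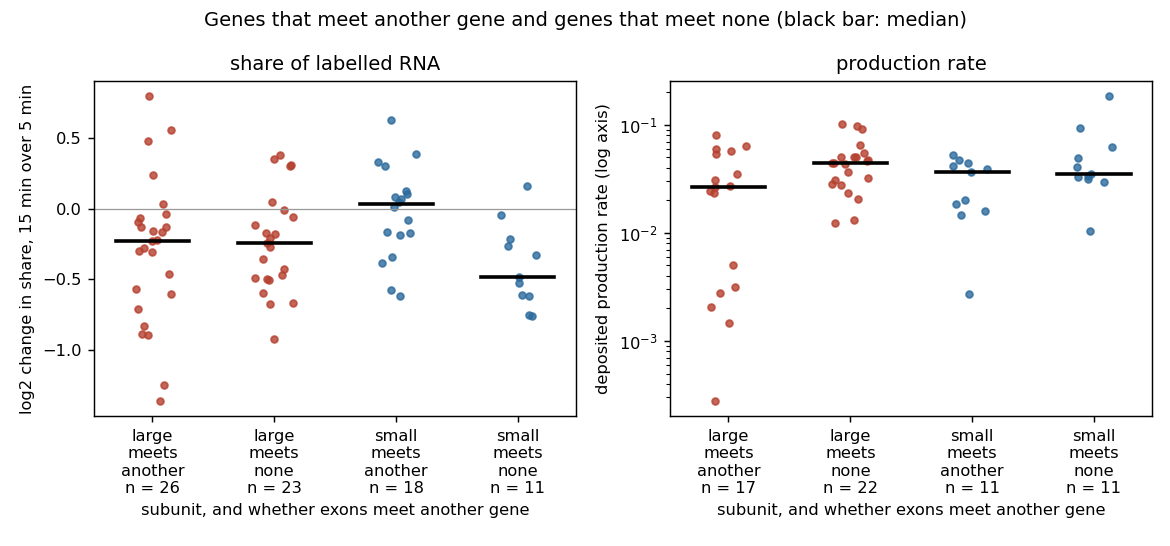
Log2 change in share of labelled RNA, 15 min over 5 min (left), and deposited production rate on a log axis (right), for large (red) and small (blue) subunit genes whose exons meet another gene or none. Points are genes, black bars medians and n the number of genes. Small subunit genes that meet none have the lowest median share change, -0.48, and the lowest rates are in genes that meet another gene.

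The deposited table of production rates gave 1 rate per gene, with no replicate and no stated unit, for 61 of the 78 genes. It was matched by gene identifier, since 3 of the 61 stand there under an older symbol or none. The median rate was 0.0349 for 39 large and 0.0357 for 22 small subunit genes, against 0.0123 for 10423 rated coding genes. MRPS34 had the highest rate of the 61 at 0.184, above 98.5% of rated coding genes. MRPL41, MRPL17 and MRPL16 followed in the large subunit at 0.102, 0.0985 and 0.0909, and MRPS30 and MRPS21 in the small subunit at 0.0934 and 0.0618. Of the 17 genes without a rate 16 have exons that meet another gene.

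The lowest rates were those of MRPL23, MRPL33 and MRPL46 at 0.000278, 0.00148 and 0.00204, and in the small subunit those of MRPS22, MRPS31 and MRPS2 at 0.00275, 0.0105 and 0.0146. MRPL23, the counterpart of a bacterial protein at the tunnel exit, had 2.51 and 1.85 CPM after 15 min, against 1.19 and 2.46 CPM after 5 min, from 5 to 13 reads in each library. Its label times overlapped, and its share did not pass (log2 change 0.24 ± 0.51, adjusted p = 0.751, edgeR). MRPL46 stood at 14.2 CPM per kilobase of exon, against 0.673 for MRPL23, and its exons meet AC013489.1 on the same strand. Annotated spans of 216371 bases for MRPL33 and 351418 bases for MRPS22 reach over neighbouring genes, and the exons of both meet other genes.

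Per kilobase of exon the labelled level was highest for MRPS34, MRPS21 and MRPS16 in the small subunit, at 66.1, 64.4 and 56.3 CPM, and for MRPL18, MRPL16 and MRPL14 in the large subunit, at 50.5, 47.9 and 46.3 CPM. It was lowest for MRPL23, MRPL53 and MRPL38 in the large subunit, at 0.673, 4.45 and 4.62 CPM, and for MRPS24, MRPS33 and MRPS28 in the small subunit, at 6.38, 7.86 and 8.64 CPM. The median over the 78 genes was 21.0 CPM, against 8.19 CPM for tested coding genes. Across the 61 rated genes the log2 rate and the log2 15 min reads per kilobase of exon had a Pearson correlation of 0.65, against 0.88 over tested coding genes, a description over genes that share libraries and length.

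The set consists of short genes, with a median exonic length of 2.54 kb against 5.08 kb for tested coding genes. The 26 genes with the least exonic sequence, up to 1.89 kb, had a median log2 change in share of -0.49, with 17 lower and 2 higher. The middle 26 had -0.15, with 10 lower and 4 higher, and the 26 with the most had -0.17, with 11 lower and 3 higher, where 30.5% of tested coding genes were lower and 13.7% higher. Across the 78 genes Spearman's rho of share change and exonic length was 0.33, against 0.01 over tested coding genes, given as a description.

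By total counts MRPS30, MRPS25 and MRPS16 led the small subunit. MRPS30, which carries a small subunit name but sits in the large subunit, had 193 and 185 CPM after 15 min, against 230 and 224 CPM after 5 min, and was lower in share (-0.26 ± 0.07, adjusted p = 0.000326, edgeR). MRPS25, a mitochondria-specific protein, had 194 and 196 CPM after 15 min, against 180 and 188 CPM after 5 min, and did not pass (0.09 ± 0.07, adjusted p = 0.323, edgeR). MRPS16, the counterpart of a bacterial protein, had 143 and 152 CPM after 15 min, against 164 and 170 CPM after 5 min, and its loss of -0.18 ± 0.07 was not called with DESeq2.

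The paralogs MRPS18A, MRPS18B and MRPS18C descend from 1 bacterial-type protein. MRPS18A, like MRPS30, sits in the large subunit but is counted by its symbol in the small subunit. MRPS18B had 61.7 and 65.9 CPM after 15 min, against 90.7 and 98.7 CPM after 5 min, and was lower (-0.57 ± 0.09, adjusted p = 1.3e-09, edgeR). MRPS18A had 19.5 and 23.0 CPM after 15 min, against 17.4 and 22.8 CPM after 5 min, and MRPS18C had 84.4 and 82.9 CPM after 15 min, against 82.4 and 71.4 CPM after 5 min. The label times of MRPS18A overlapped, and neither passed (0.07 ± 0.16 and 0.12 ± 0.09, adjusted p = 0.779 and 0.263, edgeR). Differences between the paralogs were not tested.

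Some members have known roles beside protein synthesis. MRPL58, a peptidyl-tRNA hydrolase that became part of the large subunit, changed by -0.50 ± 0.15, and MRPS36, now known as a subunit of the oxoglutarate dehydrogenase complex, by -0.48 ± 0.14 (adjusted p = 0.00301 and 0.0018, edgeR). Neither was called with DESeq2 or without 15 min replicate 1. MRPS12, whose bacterial counterpart lies at the decoding centre, had 63.0 and 57.5 CPM after 15 min, against 67.3 and 68.1 CPM after 5 min, and did not pass (-0.17 ± 0.10, adjusted p = 0.163, edgeR).

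Of the 46 members with a bacterial counterpart, 21 were lower in share and 7 higher, with a median log2 change of -0.20. Of the 31 mitochondria-specific members, 16 were lower and 2 higher, with a median of -0.21. These are 45.7% and 51.6% lower and 15.2% and 6.45% higher, where 30.5% of tested coding genes were lower and 13.7% higher. Of the MRPS18 paralogs, MRPS18C was counted as having a counterpart, and MRPS18A and MRPS18B as mitochondria-specific. MRPS36 was in neither list.

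Pseudogene copies could draw reads from their parents. The annotation lists 74 for the 78 genes, and 29 of them had a read. Together they held 1795 reads, against 93314 reads for the 78 genes, or 1.92%. MRPL53P1 held 507 reads while its parent MRPL53 had 7.90 and 6.36 CPM after 15 min, against 4.06 and 5.60 CPM after 5 min, from 114 reads in all. The copies of MRPS31 held 284 reads beside 438 of MRPS31, those of MRPS17 207 beside 502, those of MRPS6 310 beside 795 and those of MRPL45 158 beside 559. The levels of MRPL53, MRPS31, MRPS17, MRPS6 and MRPL45 are therefore uncertain.

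Other genes of the same process were compared with the set. The 5 mitochondrial ribosomal proteins under other symbols split, with DAP3, AURKAIP1 and GADD45GIP1 lower and PTCD3 and CHCHD1 higher, at log2 changes between -0.91 for AURKAIP1 and 0.32 for CHCHD1. Of 25 assembly factors 6 were lower and 7 higher, with a median of 0.01. Of 16 genes listed as translation factors 7 were lower and 0 higher, with a median of -0.17. That list also holds the mRNA-binding proteins LRPPRC and SLIRP and the membrane insertase OXA1L. LRPPRC and SLIRP are among the 7 lower, at -0.62 and -0.21, and OXA1L did not pass. The 6 lower assembly factors are 24% and the 7 lower translation factors 43.75%, beside 30.5% of tested coding genes and 21.3% of all tested genes. Higher in share were 28% of assembly and 0% of translation factors, beside 13.7% of tested coding genes and 16.8% of all tested genes. TUFM, the elongation factor that brings aminoacyl-tRNA to the mitochondrial ribosome, changed by -1.13 at means of 117 CPM after 15 min and 257 CPM after 5 min. MTERF4, which with NSUN4 matures the large subunit, changed by 0.71.

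Of 86 tested cytosolic ribosomal protein genes 60 were lower and 8 higher, with a median of -0.33 and a median fold of 2.50. That is 69.8% lower and 9.30% higher, where 30.5% of tested coding genes were lower and 13.7% higher. The transcripts translated by the mitochondrial ribosome moved the other way. Of 13 mitochondrially encoded genes 11, or 84.6%, were higher in share and 0 lower, with a median of 1.65. These genes together took 6.85% and 5.88% of human reads after 15 min, against 2.03% and 2.55% after 5 min, while the 78 ribosomal protein genes took 0.472% and 0.480% after 15 min, against 0.517% and 0.518% after 5 min. The part of this rise in the share changes of the nuclear genes was not tested.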

How the data were processed

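The authors deposited raw counts of reads per human and per fly gene for each library, and 1 production rate per gene, treated as a score, with no unit per the file headers. Builds hg38 and dm6 and the tools STAR 2.7, Subread 2.0.1, featureCounts, edgeR and bcl2fastq 2.17.1.14 are named in the submitters' processing notes. Neither the counted feature nor the strand setting is given in the sources used here, so reads of overlapping genes may be divided in ways not known.

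Counts of 4 libraries were fitted with edgeR 4.0.16 (filterByExpr, minimum count 10, robust quasi-likelihood, label time as the term). Share used TMM factors, and CPM are TMM-scaled. The rise used fly read totals as library sizes, and the test against the ratio of label times added an offset for 3-fold. Two-sided p-values were adjusted after Benjamini and Hochberg over 17322 genes, with a threshold of 0.05. Intervals of folds are 95%. DESeq2 1.42.0, total-count and fly median-of-ratios scaling, no filter, a replicate block and leaving out each library were the alternatives. The fits were tested on simulated data.

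The spread between libraries of 1 label time exceeded that of read sampling, with a chi-square per degree of freedom of 1.49 for 15 min and 1.38 for 5 min. Symbols, positions and overlaps came from GENCODE 29, promoter windows from RefSeq. Named genes were the 10 largest losses and up to 10 gains called, with an average log2 CPM no lower than 3 and label times apart, the 3 highest levels and the 3 highest and lowest rates per subunit, the 3 largest and smallest folds, and genes picked for their biology. MRPL14, MRPL53, MRPS28 and MRPS33 (levels per length), the pairs with neighbours, MTERF4 and the lists of calls held in every alternative were chosen after values were seen. For 1 marker of other cells the value is not reported here. The members, lists and motifs were chosen with earlier results of these data known.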

Additional observations from a re-analysis of the deposited data

How the results depend on the processing

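Direction held for most values. The rise of 77 genes was 74 to 77 without each library. The 18 genes below 3-fold were 11 with the replicate block and 0 to 38 without each library, and the 4 above were 2 with DESeq2, 2 with the block and 0 to 13. The 38 losses of share were 22 with DESeq2, and the 9 gains were 3 with DESeq2 and 5 to 8 without each library. With total counts, which moved the median of all genes by 0.10 on the log2 scale, the median share change was -0.12 for large and -0.063 for small subunit genes; without each library it was -0.33 to -0.22 and -0.25 to -0.15, and the large minus small difference was -0.10 to -0.072. Among members that meet no other gene the small subunit median was -0.48 and the difference reversed to 0.24; rates were then 0.0441 (large) and 0.0352 (small). Grouped by place in the ribosome, large subunit genes took 0.289% of reads after 15 min and 0.323% after 5 min, small subunit genes 0.248% and 0.254%, and the rates were 0.0376 and 0.0389. At an average log2 CPM of at least 3 the large subunit rate was 0.0357. Uncalled share changes reversed without some library for MRPL23 (-0.20 to 0.85), MRPS18A (-0.14 to 0.27), MRPS22 (-0.067 to 0.057) and MRPS31 (-0.21 to 0.11), and with total counts for MRPS31 (0.060). The causes were not tested. Whether replicate numbers pair the libraries is not known. The correlation of deviations was 0.057, and 0.091 over genes at or above an average log2 CPM of 3. With 2 libraries per label time it cannot decide the question. With the replicate block 40 genes were lower in share and 9 higher. Of 720 alternative values for 36 named genes, 627 kept direction and call, 83 lost the call, 2 gained it and 8 reversed. Depth limits MRPL23 most.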
